A study of Mus musculus with 15 samples.

Results

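The nuclear receptor genes of the mouse, apart from Pparg and Rxra, were examined for trimethylated histone H3 lysine 4 (H3K4me3) at their promoters. The group had 45 genes, taken by name from the receptor family, out of 21770 protein-coding genes in the annotation. H3K4me3 ChIP–seq was performed in mBA cells, a mouse brown adipocyte model, in 3 conditions: WT cells without treatment, WT cells given 2-hydroxyglutarate in a form that enters cells, dissolved in DMSO (WT + 2HG), and untreated cells with a CLPP knockout (CLPP-KO), with 4 ChIP samples and 1 input sample in each. CLPP is the proteolytic subunit of a mitochondrial matrix protease. All cells grew in high glucose medium without pyruvate, and the CLPP-KO cells alone also received uridine, so that genotype and uridine cannot be told apart. No DMSO is named for the untreated WT cells, so 2HG and its solvent cannot be told apart either. The study derived the lines from brown fat and immortalized the preadipocytes with SV40 large T antigen before differentiation, each line coming from pooled animals of both sexes, whereas the labels call the cells primary. It defines replicates as independent cultures, and no further line of either genotype is described. Differences between lines therefore cannot be told apart from genotype. Peaks were called on the 4 ChIP samples of a condition together. Each condition therefore has 1 peak list, no spread between replicates can be given, and every difference between lists below is a description without a test. Both comparisons use the same WT list.

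The lists held 12342 peaks in WT, 15118 in CLPP-KO and 14059 in WT + 2HG. They give no read counts, so the depth behind a peak is unknown. A gene was counted as marked when a peak overlapped 2000 bp either side of any of its annotated starts on GRCm39. The strength of a peak is given as the percentile of its area under the curve among all peaks of the same list, because areas are not scaled between lists. The width of a gene's mark is the summed width of its promoter peaks in bp. Where 3 values stand without labels, they are given in the order WT, WT + 2HG, CLPP-KO. Clpp itself had a promoter peak in every list, of 661 bp in WT, 629 bp in CLPP-KO and 664 bp in WT + 2HG, and a promoter mark does not report on a deletion inside the gene.

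Nuclear receptors are transcription factors that share a zinc-finger DNA-binding domain and a pocket for lipid-soluble ligands such as thyroid hormone, retinoic acid, steroids, oxysterols and fatty acids. Many bind DNA as heterodimers with a retinoid X receptor, recruit corepressors without ligand and exchange them for coactivators once ligand is bound. Orphan members have no agreed natural ligand. In brown fat, thyroid hormone receptors, PPARs, the oestrogen-related receptors and the glucocorticoid receptor take part in differentiation and thermogenesis. H3K4me3 marks the starts of active and poised genes, so a peak at a receptor gene speaks of its promoter and not of the receptor protein.

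Most receptor genes were marked, and the 6 that differed between lists were all unmarked in WT. Of the 45 genes, 28 (62.2%) had a promoter peak in WT, 34 in CLPP-KO and 31 in WT + 2HG, where protein-coding genes as a whole were marked in 51.3, 58.2 and 56.4%. The same 28 genes were marked in every list, and 11 were marked in none. Rorb, Nr2e1 and Esrrb were marked in CLPP-KO only. Nr1h3, Esrrg and Nr5a1 were marked in WT + 2HG and CLPP-KO. Among the 17 receptor genes without a WT peak, 6 were therefore marked in CLPP-KO and 3 in WT + 2HG. Of all protein-coding genes without a WT promoter peak, 14.9% were marked in CLPP-KO and 11.6% in WT + 2HG. No receptor gene marked in WT lacked a peak in CLPP-KO or in WT + 2HG, against 0.672 and 0.914% of the protein-coding genes marked in WT. Of the 14 receptor genes without a WT + 2HG peak 3 were marked in CLPP-KO, where 6.42% of such protein-coding genes were, and none was marked in WT + 2HG and unmarked in CLPP-KO, where 2.53% of protein-coding genes without a CLPP-KO peak had one. The lists differ in length. When the longer lists were cut to the 12342 peaks of largest area, as in WT, 3 receptor genes were marked in CLPP-KO and not in WT. For WT + 2HG it was 1 gene. Of protein-coding genes without a WT promoter peak, 8.39 and 7.26% were then marked in CLPP-KO and WT + 2HG. With the cut by summit p the counts were 1 and 2, against 8.28 and 7.13%. An excess of receptor genes over protein-coding genes was thus not seen under every cut.

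The promoter sequences of 5 of these 6 genes are shown beside 1 unmarked receptor gene for contrast. Each runs 5′ to 3′ from 250 bases before to 50 bases after a start, read from GRCm39, and the capitals mark CpG dinucleotides. The start shown is the annotated one nearest the summit of the strongest CLPP-KO peak, or the canonical one for the unmarked gene. Rorb lies on the minus strand at chr19:19088536-19088835, Nr1h3 on the minus strand at chr2:91033368-91033667 and Nr2e1 on the minus strand at chr10:42459611-42459910. Esrrg lies on the plus strand at chr1:187340976-187341275 and Nr5a1 on the minus strand at chr2:38601151-38601450. Nr1h4, on the minus strand at chr10:89342462-89342761, had no peak in any list.
Rorb: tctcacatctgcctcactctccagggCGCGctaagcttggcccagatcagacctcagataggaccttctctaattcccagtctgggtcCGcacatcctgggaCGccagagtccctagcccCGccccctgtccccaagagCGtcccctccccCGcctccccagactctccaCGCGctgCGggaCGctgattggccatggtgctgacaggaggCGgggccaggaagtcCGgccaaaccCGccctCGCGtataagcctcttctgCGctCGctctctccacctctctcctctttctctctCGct
Nr1h3: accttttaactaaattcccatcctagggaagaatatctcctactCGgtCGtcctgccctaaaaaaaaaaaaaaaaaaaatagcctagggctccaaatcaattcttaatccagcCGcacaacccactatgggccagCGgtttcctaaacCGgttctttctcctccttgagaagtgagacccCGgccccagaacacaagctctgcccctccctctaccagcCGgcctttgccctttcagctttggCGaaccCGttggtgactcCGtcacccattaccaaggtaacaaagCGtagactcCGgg
Nr2e1: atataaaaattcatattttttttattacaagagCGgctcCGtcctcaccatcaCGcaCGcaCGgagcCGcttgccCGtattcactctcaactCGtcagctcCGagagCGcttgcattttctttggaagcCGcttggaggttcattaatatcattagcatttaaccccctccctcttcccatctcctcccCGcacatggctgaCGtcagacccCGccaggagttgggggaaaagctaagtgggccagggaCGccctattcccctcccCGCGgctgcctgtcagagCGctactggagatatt
Esrrg: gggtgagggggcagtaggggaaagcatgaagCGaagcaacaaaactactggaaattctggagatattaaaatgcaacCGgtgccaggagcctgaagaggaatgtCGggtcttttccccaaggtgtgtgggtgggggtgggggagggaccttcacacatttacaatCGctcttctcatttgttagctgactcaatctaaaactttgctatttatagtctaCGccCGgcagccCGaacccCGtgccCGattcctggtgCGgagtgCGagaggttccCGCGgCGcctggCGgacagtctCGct
Nr5a1: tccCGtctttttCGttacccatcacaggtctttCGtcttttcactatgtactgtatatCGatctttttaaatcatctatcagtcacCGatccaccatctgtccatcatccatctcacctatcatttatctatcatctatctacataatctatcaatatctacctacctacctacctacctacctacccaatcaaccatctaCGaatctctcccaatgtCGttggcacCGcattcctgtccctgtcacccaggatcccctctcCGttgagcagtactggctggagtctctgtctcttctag
Nr1h4: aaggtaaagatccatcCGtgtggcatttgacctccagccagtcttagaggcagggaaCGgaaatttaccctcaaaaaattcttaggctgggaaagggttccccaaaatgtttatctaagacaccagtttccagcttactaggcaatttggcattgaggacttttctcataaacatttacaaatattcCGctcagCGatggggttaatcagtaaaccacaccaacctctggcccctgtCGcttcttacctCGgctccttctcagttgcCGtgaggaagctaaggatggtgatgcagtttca

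In these windows of 300 bases, the unmarked Nr1h4 held 7 CpG dinucleotides. The 5 genes marked outside WT alone all held more, with 19 in Rorb, 18 in Nr2e1, 16 in Esrrg, 12 in Nr1h3 and 9 in Nr5a1. The marked start was not always the canonical one. At the canonical start Nr1h3 held 7 CpG dinucleotides, Nr5a1 held 3 and Esrrg held 19, while for Rorb and Nr2e1 the canonical start was the one shown. Over canonical starts, CpG content followed marking in the receptor genes much as in all genes. The median was 18 CpG dinucleotides (range 2 to 42) in the 28 genes marked in every list, 12.5 (3 to 19) in the 6 unmarked in WT and 3 (1 to 14) in the 11 marked in none. For protein-coding genes of the same 3 classes the medians were 19, 12 and 3.

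**Figure D1:**
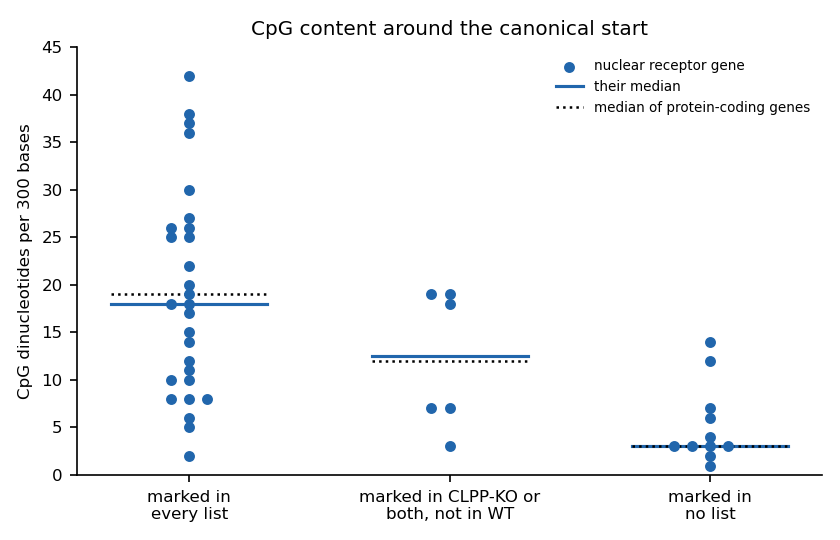
CpG dinucleotides in the 300 bases around the canonical start (y axis) of the 45 receptor genes, grouped by the lists in which they had a promoter peak (x axis). Each point is a gene, the blue line is the median of the receptor genes and the dotted line that of protein-coding genes of the same class, and the unmarked genes sit at the bottom with a median of 3.

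Among the letters searched on either strand, AGGTCA, the hexamer recognised by many nuclear receptors, was present at the canonical start of 6 of the 45 receptor genes (13.3%) and of 15.1% of protein-coding genes. The E-box CACGTG, bound by the clock factors among others, was present in 5 (11.1%) against 7.81%. The TATA box TATAAA was present in 7 (15.6%) against 13.2%. AGGTCA and CACGTG can share the letters CA where they adjoin, and such overlaps were not removed. A match is a string of letters and not a shown binding site. Of the windows shown, Nr1h4 held AGGTCA, and Nr2e1 and Esrrg held TATAAA.

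The 6 genes that were unmarked in WT carried mostly weak and narrow peaks. Rorb, which encodes a ROR receptor best known in retina and brain, had 1 CLPP-KO peak of 576 bp at percentile 15.8 of its list. It spanned chr19:19087638-19088213, with its summit at 670 bp from the start, where positive distances run downstream. Esrrb, an oestrogen-related receptor known from pluripotent cells, had 2 CLPP-KO peaks of 521 and 499 bp at percentiles 13.5 and 4.60. The stronger lay over an internal start, with its summit at -8 bp. Nr2e1, the tailless receptor of neural stem cells, had 2 CLPP-KO peaks of 360 and 782 bp at percentiles 11.2 and 24.1. They flanked the start on either side, with summits at 774 and -675 bp from it, and neither covered it. Both also lay within 2000 bp of a start of Ostm1, a neighbouring gene.

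Nr1h3 encodes LXRα, the oxysterol receptor that drives cholesterol efflux and lipogenesis. Its peak was 351 bp wide in WT + 2HG and 319 bp wide in CLPP-KO, at percentiles 5.58 and 6.07, and was absent from WT. The peaks overlapped, with summits at -35 and -22 bp from the start, and they were also in reach of a start of Acp2. Nr1h3 thus had the lowest percentile of any receptor gene marked in CLPP-KO. Esrrg encodes an oestrogen-related receptor that acts on oxidative metabolism genes. It had a WT + 2HG peak of 276 bp at percentile 5.22, the lowest of the group in that list, and a CLPP-KO peak of 955 bp at percentile 40.8 over the same start. A second CLPP-KO peak of 291 bp lay at another start, with its summit 388663 bp downstream of the start shown. Esrrg was 35.6 percentile points higher in CLPP-KO than in WT + 2HG. Nr5a1, the steroidogenic factor of adrenal and gonad, had WT + 2HG peaks of 551 and 621 bp, at percentiles 6.66 and 21.0, and a CLPP-KO peak of 823 bp at percentile 22.0. The CLPP-KO peak, downstream of the start shown, overlapped the weaker of the WT + 2HG peaks, and the stronger one, upstream of the start shown, had no CLPP-KO counterpart.

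**Figure D2:**
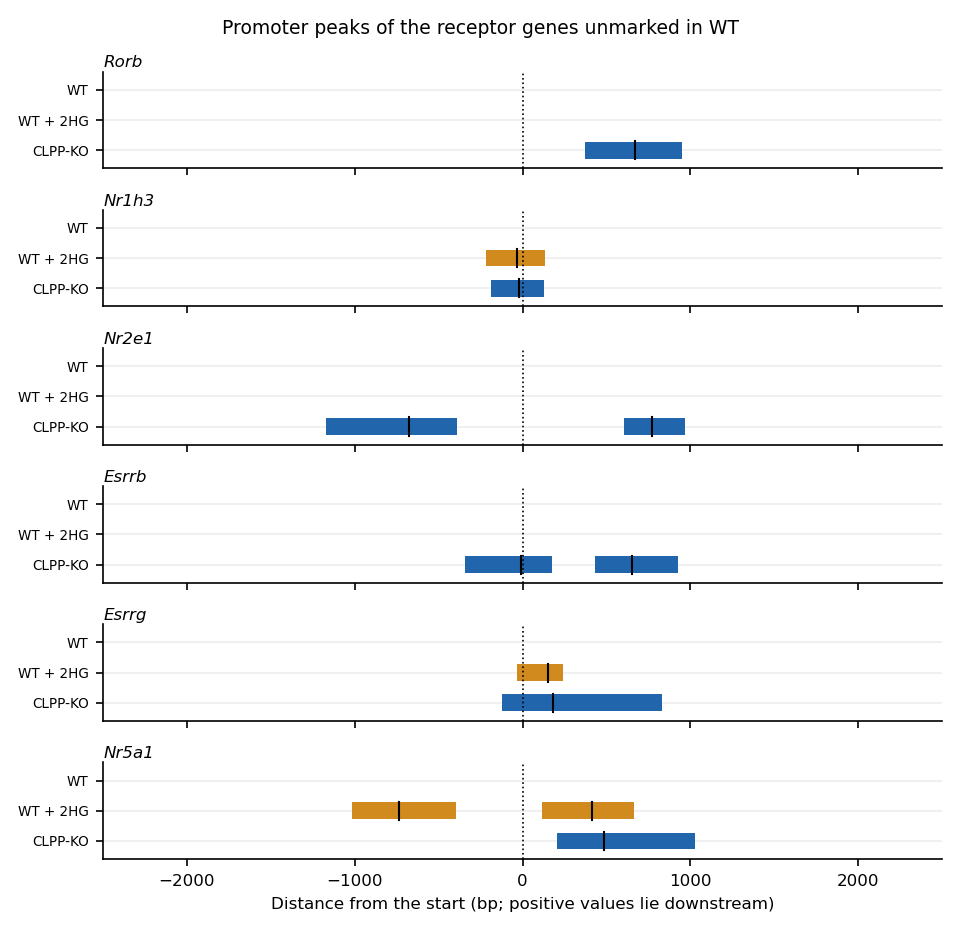
Promoter peaks of the 6 receptor genes unmarked in WT, drawn as bars by their distance in bp from the start nearest the strongest CLPP-KO peak (x axis, positive downstream) in WT, WT + 2HG and CLPP-KO (rows). Black ticks are summits. The WT rows are empty, Nr1h3 has nearly the same peak in both other lists, the Nr2e1 peaks flank the start, and the second Esrrg peak of CLPP-KO, 388663 bp downstream, lies outside the range drawn.

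Most receptor genes with a weak WT mark stood higher in the other lists. In WT, 6 of the 28 marked genes lay under percentile 20: Rarb, Nr5a2, Esr1, Vdr, Nr1d1 and Pgr. Of these 6, 5 stood at least 20 points higher in CLPP-KO and 3 in WT + 2HG. Protein-coding genes under percentile 20 in WT did so in 45.8 and 36.1%, and a gene that starts low has more room above than below. The median difference of the 6 was 33.6 points in CLPP-KO and 21.7 in WT + 2HG, against 18.4 and 16.2 for protein-coding genes under the same limit. Over all 28 genes marked in each list, 7 stood at least 20 points higher in CLPP-KO than in WT (Rarb, Ppara, Vdr, Nr2c2, Esr1, Pgr and Nr5a2), where 15.8% of protein-coding genes did. In WT + 2HG 5 did (Rarb, Ppara, Nr2c2, Esr1 and Nr5a2), against 12.8%. None stood at least 20 points lower in CLPP-KO or WT + 2HG, against 1.07 and 1.75%. The median difference over the 28 was 3.41 points for CLPP-KO and 7.54 for WT + 2HG, and 5.27 and 3.69 points for protein-coding genes. The receptor genes thus lay below protein-coding genes in CLPP-KO, and above them with equal list sizes by area, where the medians were 2.29 points for receptor genes and -0.535 for protein-coding genes. In WT + 2HG the corresponding medians were 4.97 and -0.0446. Several of these differences were smaller with lists of equal length. With equal list sizes by area, Rarb stood 17.8 and Nr5a2 12.6 points higher in CLPP-KO than in WT. In WT + 2HG, Esr1 stood 17.9, Ppara 18.5 and Nr5a2 18.6 points higher.

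**Figure D3:**
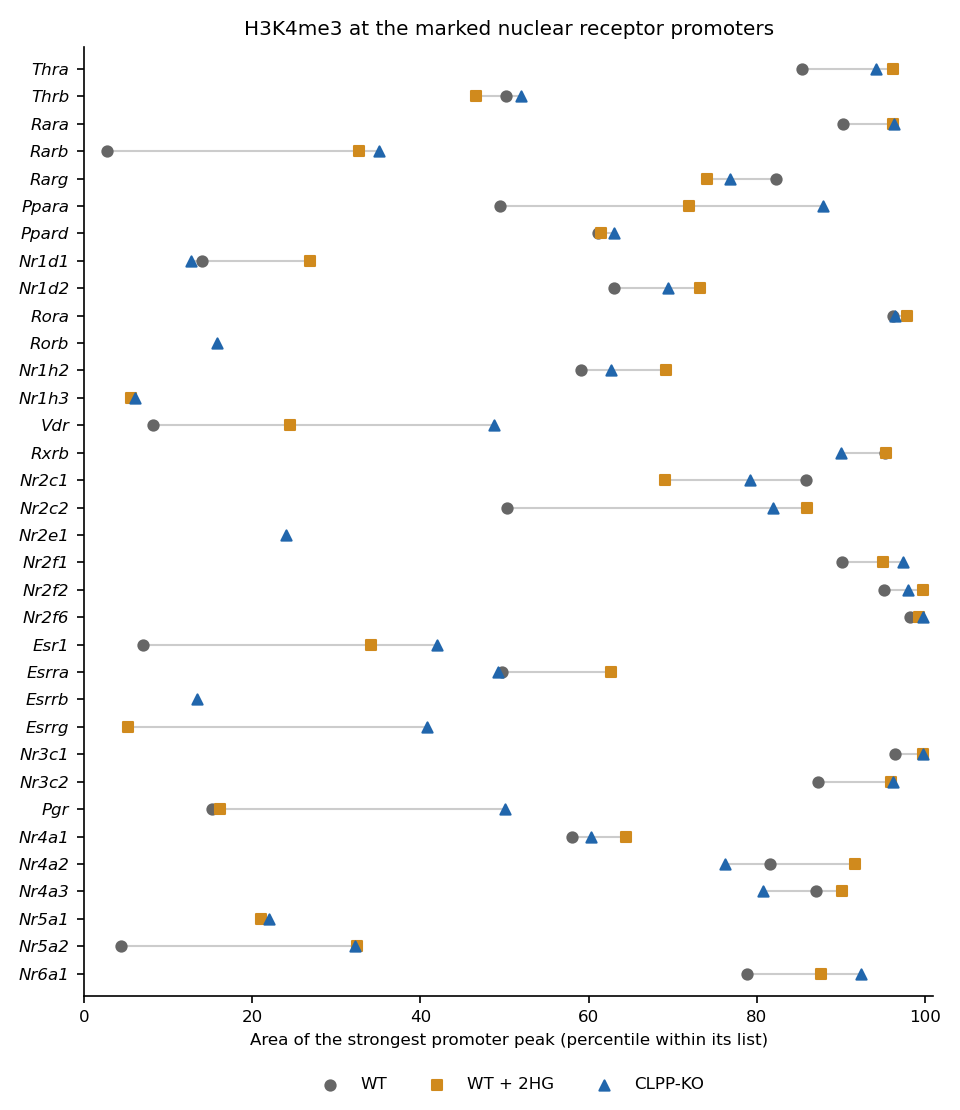
Area of the strongest promoter peak of each of the 34 marked receptor genes, as its percentile within its list (x axis), in WT (circles), WT + 2HG (squares) and CLPP-KO (triangles), with a grey line over the range. Genes with no circle had no WT peak, and Rarb, Nr5a2, Esr1, Vdr, Nr2c2 and Ppara have the circle well to the left of the other symbols.

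Among the thyroid hormone and retinoic acid receptors, all 5 genes were marked in every list. Thra, which encodes thyroid hormone receptor α, stood at percentile 85.4 in WT, at 96.2 in WT + 2HG and at 94.2 in CLPP-KO, with marks of 1128, 1388 and 1315 bp. Thrb, which encodes the other thyroid hormone receptor, stood near the middle of each list, at percentiles 50.2, 46.6 and 52.0, with 1095, 1194 and 1317 bp. The Thra promoter was thus the stronger of the pair in every list. Rara, encoding the broadly expressed retinoic acid receptor, stood at percentiles 90.3, 96.2 and 96.3. Rarb, a retinoic acid receptor gene that is itself induced by retinoic acid, had the lowest WT percentile of the group, 2.75, and stood at 32.7 in WT + 2HG and 35.1 in CLPP-KO. Its width differed less, with 771, 901 and 853 bp. Rarg had 6 promoter peaks in each list, the most of any receptor gene, and its strongest stood at percentiles 82.3, 74.0 and 76.9.

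The PPARs bind fatty acids and their derivatives. Ppara, the activator of fatty acid oxidation, stood at percentile 49.5 in WT, at 71.9 in WT + 2HG and at 87.9 in CLPP-KO, with a single peak of 1165, 1593 and 1890 bp that overlapped between lists. Ppard differed little, at percentiles 61.1, 61.4 and 63.1 with 757, 897 and 799 bp. By area, Ppara therefore stood below Ppard in WT and above it in the other lists. By the −log10 p at the summit, Ppara was below Ppard in every list. The values were 8.30, 15.3 and 19.0 for Ppara and 15.1, 20.2 and 23.3 for Ppard. Pparg, which is outside the group, stood at percentiles 16.99, 70.4 and 37.3, in an order unlike that of Ppara. Its mark was 1 peak of 573 bp in WT and 1 of 1549 bp in WT + 2HG. In CLPP-KO the Pparg mark of 1393 bp was split into 2 peaks, and the percentile is that of the strongest, of 713 bp.

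The clock receptors comprise the REV-ERB repressors and the ROR activators, which compete for the same elements in genes such as Bmal1. Nr1d2, encoding REV-ERBβ, stood at percentiles 63.0, 73.2 and 69.5. Its width differed more, and the peak was 608 bp wide in WT, 1451 bp in CLPP-KO and 1168 bp in WT + 2HG. Nr1d1, encoding REV-ERBα, stood low in every list, at percentiles 14.0, 26.9 and 12.7 with 833, 1414 and 654 bp. Its CLPP-KO mark consisted of 2 small peaks of 289 and 365 bp, the stronger of which overlapped no WT peak, so the percentiles do not follow 1 peak. Nr1d1 overlaps the end of Thra on the opposite strand, at a distance from the Thra start. Rora was strongly marked, at percentiles 96.2, 97.8 and 96.4 with 3015, 3894 and 3748 bp in 2 separate regions.

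Of the 7 receptor genes for sterols, bile acids, vitamin D and xenobiotics, 2 were marked in every list. Nr1h2, encoding the ubiquitous LXRβ, stood at percentiles 59.1, 69.2 and 62.7 with 704, 714 and 783 bp, well above Nr1h3. Vdr, the vitamin D receptor gene, stood at percentile 8.16 in WT, at 24.5 in WT + 2HG and at 48.7 in CLPP-KO. The difference of 40.6 points between CLPP-KO and WT was the largest among the receptor genes. The width of the Vdr mark differed less, with 916, 929 and 1104 bp. Nr1h4 and Nr1h5, the bile acid receptor gene and its relative, and Nr1i2 and Nr1i3, encoding the xenobiotic receptors PXR and CAR, were marked in none.

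Of the HNF4 and retinoid X receptor genes, Rxrb was the marked one, at percentiles 95.3, 95.4 and 90.0. Its peak also reached a start of Slc39a7. Hnf4a and Hnf4g, the liver and gut factors, and Rxrg, the retinoid X receptor gene of muscle and brain, were marked in none. Rxra, outside the group, stood at percentiles 70.8, 77.1 and 81.9.

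The orphan receptors of the testicular, tailless and COUP-TF families included some of the strongest marks. Nr2f6 stood at percentile 98.2 in WT, the highest of the group, at 99.2 in WT + 2HG and at 99.8 in CLPP-KO, with 2238, 3371 and 2968 bp. Nr2f2, encoding COUP-TFII, a factor of mesenchymal and venous cells that acts in adipocyte progenitors, stood at percentiles 95.2, 99.8 and 97.9. Its promoter held 3 peaks in WT, 2 in CLPP-KO and 1 in WT + 2HG, where an unbroken peak of 4990 bp was the third widest of 14059. The summed width differed less, with 4233 bp in WT, 4610 bp in CLPP-KO and the same 4990 bp in WT + 2HG. Nr2f1, encoding COUP-TFI, stood at percentiles 90.1, 95.0 and 97.3, and in CLPP-KO it had an additional peak of 829 bp inside the window of another start.

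Nr2c1 and Nr2c2 encode the testicular receptors TR2 and TR4, which act together as repressors. They had opposite orders. Nr2c2 stood at percentile 50.3 in WT, at 86.0 in WT + 2HG and at 81.9 in CLPP-KO, with 1131, 2043 and 1844 bp. Nr2c1 stood at percentiles 85.8, 69.1 and 79.2, with 1023, 1131 and 1008 bp. The difference of 35.6 points at Nr2c2 between WT + 2HG and WT was the largest of that comparison, and the difference of -16.7 points at Nr2c1 was the largest in the other direction. By the percentile of the summit p, however, Nr2c2 stood 7.99 points higher in WT + 2HG and 11.7 in CLPP-KO. Nr2e3, a photoreceptor factor, was unmarked.

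Of the oestrogen and oestrogen-related receptor genes, Esr1 and Esrra were marked in every list. Esr1, encoding the oestrogen receptor α, stood at percentile 7.02 in WT, at 34.1 in WT + 2HG and at 41.9 in CLPP-KO, with 616, 909 and 835 bp. Esrra, which acts with PGC-1 coactivators on mitochondrial genes and is the abundant oestrogen-related receptor gene of brown fat, stood at percentiles 49.7, 62.6 and 49.3. Its peak was narrower outside WT, at 971, 900 and 870 bp. Esr2 was unmarked, and Esrrb and Esrrg are described above. This family thus ranged from promoters marked in every list, as at Esrra, to marks present outside WT alone.

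The corticosteroid receptor genes were marked near the top of each list. Nr3c1, encoding the glucocorticoid receptor, stood at percentiles 96.5, 99.8 and 99.7, the highest of the group in WT + 2HG, with 2917, 3110 and 2959 bp. The WT mark was split into 2 peaks, and those of WT + 2HG and CLPP-KO were unbroken. Nr3c2, the mineralocorticoid receptor gene, stood at percentiles 87.2, 95.9 and 96.2 with 2633, 3217 and 3500 bp. Pgr, the progesterone receptor gene, stood apart from both, at percentile 15.2 in WT, at 16.2 in WT + 2HG and at 50.0 in CLPP-KO. Its peak was 515, 778 and 1341 bp wide, with a summit more than 1 kb downstream of the nearest Pgr start, in reach of the non-coding gene Gm32014, to which it fell in all 3 lists when each peak was given to its nearest start. Under that rule the Thrb peaks, too, went to a neighbouring gene. In all, it left 24 receptor genes marked in WT, against 28 as reported, and 41.3% of protein-coding genes, against 51.3%. Other receptor genes that lost their WT peak under it are not named here.

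The NR4A receptors are products of immediate-early genes that respond to cAMP and act without a classical ligand. Nr4a1, encoding Nur77, stood at percentiles 58.0, 64.4 and 60.3 with 1304, 2038 and 2616 bp. The difference in width lay at its internal starts and not at its strongest peak. The peak around one such start was 352 bp wide in WT, 1028 bp in CLPP-KO and 686 bp in WT + 2HG, and a further peak of 520 bp in CLPP-KO and 319 bp in WT + 2HG overlapped no WT peak. The strongest Nr4a2 peak, at percentiles 81.6, 91.6 and 76.2, was not the same peak in every list. The WT one overlapped peaks at percentiles 75.2 in CLPP-KO and 74.97 in WT + 2HG. The peak that was strongest in those lists overlapped a WT peak at percentile 58.5. Nr4a3, encoding NOR1, stood at percentiles 87.0, 90.1 and 80.8 with 2990, 3296 and 4076 bp. Nr4a3 thus stood highest in WT + 2HG and lowest in CLPP-KO, while at Nr4a2 the order depended on the peak.

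Of the NR5A and NR6A genes, Nr5a2, encoding the liver receptor homologue LRH-1, stood at percentile 4.46 in WT, at 32.4 in WT + 2HG and at 32.3 in CLPP-KO, with 535, 1357 and 1305 bp. A second peak of 288 bp in CLPP-KO and 567 bp in WT + 2HG lay at another start and overlapped no WT peak. Nr6a1, the germ cell nuclear factor gene, stood at percentiles 78.8, 87.6 and 92.4. Nr0b1 and Nr0b2, encoding DAX1 and SHP, receptors without a DNA-binding domain, were marked in none.

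The promoter marks of the receptor genes were on balance wider outside WT, as were those of other genes. In both CLPP-KO and WT + 2HG, 25 of the 28 genes marked in every list had a wider mark than in WT, where 72.7 and 73.3% of protein-coding genes had. The median log2 ratio of width to WT was 0.24 in CLPP-KO and 0.28 in WT + 2HG for the receptor genes, and 0.14 and 0.15 for protein-coding genes. Marks at least 1.5 times as wide as in WT were found at 7 receptor genes in CLPP-KO, where 14.3% of protein-coding genes passed that limit, and at 7 in WT + 2HG, against 13.9%. Nr1d2, Nr2c2, Pgr, Nr4a1 and Nr5a2 passed in both, Ppara and Nr2f1 in CLPP-KO, and Nr1d1 and Nr2f6 in WT + 2HG. No receptor gene had a mark narrowed by as much, against 1.47 and 1.28%. The largest log2 ratios of width to WT were 1.38 at Pgr, 1.29 at Nr5a2, 1.25 at Nr1d2, 1.00 at Nr4a1 and 0.94 at Nr2f1 in CLPP-KO. In WT + 2HG they were 1.34 at Nr5a2, 0.94 at Nr1d2, 0.85 at Nr2c2, 0.76 at Nr1d1 and 0.64 at Nr4a1. Some of these wider marks were made up of additional peaks. With the strongest peak alone the log2 ratio was 0.17 at Nr4a1 and 0.48 at Nr2f1 in CLPP-KO. In WT + 2HG it was 0.12 at Nr4a1, 0.46 at Nr1d1, 0.28 at Nr2f6 and 0.56 at Nr5a2.

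**Figure D4:**
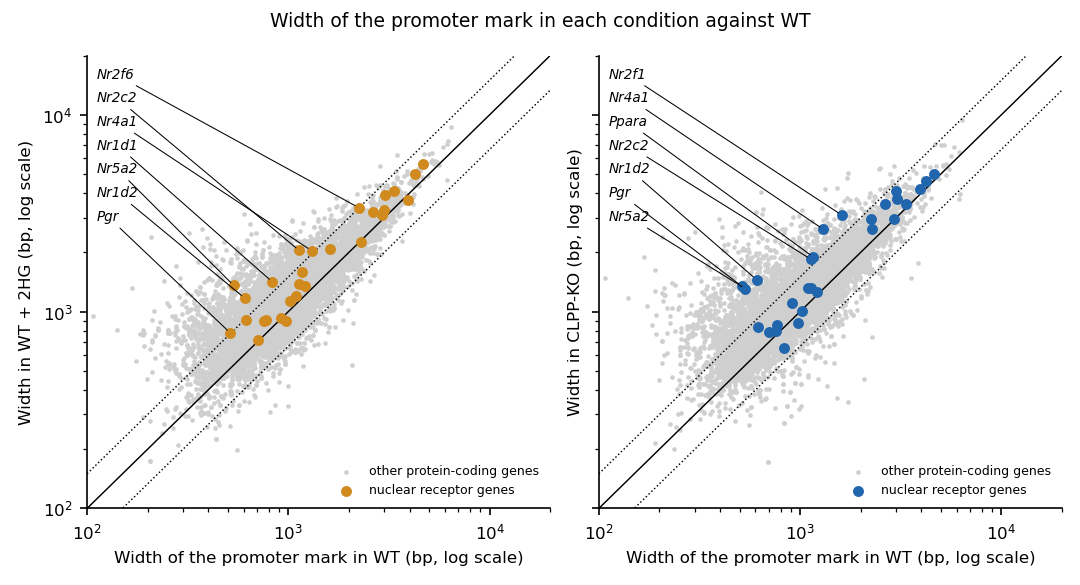
Summed width of the promoter peaks in WT (x axis) against WT + 2HG (left) and CLPP-KO (right), in bp on log scales, for the 28 receptor genes marked in every list (coloured) and other protein-coding genes marked in every list (grey). The solid line is equal width and the dotted lines a 1.5-fold difference, and the named genes are those at least 1.5 times as wide as in WT.

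Receptor genes often carried several promoter peaks. More than 1 peak was found at 10 of the 28 genes marked in WT, 14 of 34 in CLPP-KO and 11 of 31 in WT + 2HG, against 17.4, 16.9 and 16.3% of marked protein-coding genes. Their number of annotated starts was also higher, with a median of 12 for the receptor genes marked in WT and 9 for protein-coding genes marked in WT. In all, the receptor genes held 47 promoter peaks in WT, 57 in CLPP-KO and 49 in WT + 2HG. Of these, 14 in CLPP-KO and 8 in WT + 2HG overlapped no WT peak. The same share over all promoter peaks is not given here, and both lists were longer than that of WT. Most summits lay within 500 bp of an annotated start, namely 37 in WT, 42 in CLPP-KO and 41 in WT + 2HG. These peaks had been chosen for overlapping 2000 bp around a start, and the share for other genes is not given here. At 7 of the 28 genes marked in every list, no peak lay within 2000 bp of the 5′ end of the annotated gene in any list. These were Thra, Rara, Rarb, Nr2f2, Esr1, Nr3c1 and Nr5a2, and their marked starts were internal. With the 5′ end alone, 21 receptor genes were marked in WT, where any start gave 28. For protein-coding genes the shares marked in WT were 47.2% with the 5′ end alone and 51.3% with any start.

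CLPP-KO and WT + 2HG were also compared directly. Of the 31 receptor genes marked in both, 3 stood at least 20 points higher in CLPP-KO, namely Esrrg by 35.6, Pgr by 33.9 and Vdr by 24.2 points, where 4.39% of protein-coding genes did. None stood as much lower, against 1.16%.

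The partners of the receptors were almost all marked, and the same ones in every list. Of 17 coactivator genes, 16 were marked in every list, including Ncoa1, Ncoa2, Crebbp and Ep300. Of all protein-coding genes, 50.6% were marked in every list. The ranks of the coactivator genes still differed in places, as at Crebbp, an acetyltransferase gene that stood at percentiles 69.2, 92.0 and 88.6. Its WT mark of 1750 bp was split into 2 peaks, the strongest of 654 bp. In WT + 2HG and CLPP-KO it was a single peak of 2013 and 1914 bp, so the percentiles do not compare like peaks. The coactivator gene marked in none was Ppargc1a, encoding the cold-induced coactivator PGC-1α, while its relative Ppargc1b stood at percentiles 94.7, 98.0 and 99.0. All 11 corepressor genes were marked in every list, among them Ncor1 and Hdac3.

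Genes of ligand supply and removal and receptor target genes differed between lists in a few members, again marked outside WT alone. Of 24 ligand supply and removal genes, 14 were marked in WT and 17 in each of the other lists. Aldh1a2, a retinoic acid synthesising enzyme gene, and Crabp1, encoding a retinoic acid binding protein, were marked in both WT + 2HG and CLPP-KO. Aldh1a2 stood at percentiles 18.8 and 30.5 there, and Crabp1 at 11.5 and 24.6. Crabp2 was marked in WT + 2HG only, at percentile 4.61, and Cyp24a1, the vitamin D-inactivating enzyme gene and a classical VDR target, in CLPP-KO only, by a peak of 402 bp at percentile 13.7. Dio2, which activates thyroid hormone in brown fat, was marked in none. Of 24 receptor target genes, 17 were marked in WT and 20 in each of the other lists. The LXR targets Abcg1 and Scd1 and the PPAR target Angptl4 were those marked in WT + 2HG and CLPP-KO and not in WT. Abcg1 stood at percentiles 11.9 and 49.1, Scd1 at percentiles 8.36 and 4.50, and Angptl4 at percentiles 37.9 and 23.3. The lists outside WT were longer. Among protein-coding genes unmarked in WT, 14.9% had a CLPP-KO promoter peak and 11.6% had one after 2HG. For the ligand and target gene sets, counts from lists of equal length are not given here. Whether these sets exceed the protein-coding shares was not tested.

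The labelled cell type was checked against marker genes. Of 15 brown adipocyte markers, 5 were marked in WT and 8 in each of the other lists. Pparg, Cebpa, Cebpb, Prdm16 and Zic1 were marked in every list, whereas the defining markers Ucp1, Adipoq, Fabp4, Ppargc1a, Dio2 and Adrb3 were marked in none. Cidea and Plin1 were marked in WT + 2HG and CLPP-KO, Lipe in WT + 2HG and Ebf2 in CLPP-KO. Cidea stood at percentiles 21.3 and 33.6 there, Plin1 at 21.0 and 33.8, Lipe at 22.5 and Ebf2 at 22.2. Of 7 preadipocyte and fibroblast markers, 5 were marked in WT, 6 in CLPP-KO and 4 in WT + 2HG. Other cell types had few marked genes, with 0, 1 and 2 of 6 skeletal muscle markers, 1 of 4 endothelial markers in each list, none of 5 macrophage markers, and 1, 1 and 2 of 4 neuronal markers. More brown adipocyte markers were thus marked outside WT, in lists longer than that of WT. The same held for the receptor genes and for protein-coding genes as a whole. The latter were marked in 51.3% in WT, 58.2% in CLPP-KO and 56.4% in WT + 2HG. The part of the markers in the receptor results was not tested.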

How the data were processed

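H3K4me3 ChIP–seq was analysed from 3 peak lists, 1 for WT, 1 for CLPP-KO and 1 for WT + 2HG, each made from 4 ChIP samples called together (12 in all). The 3 inputs have no values of their own here. The submitters' processing notes name fastp 0.23.4, BWA 0.7.17, Genrich 0.6.1, deepTools 3.5.4 and the build mm39. The authors deposited for each peak a score capped at 1000, which was not used. As deposited, the signal value of a peak is its area under the curve of −log10 p, and a further column holds the −log10 p at the summit. The lists as deposited hold no q-values and no read counts. The study states a nominal sequencing depth and a false discovery rate for calling, and the depth of each sample and the counting error are unknown here. Neither value is scaled between lists, so ranks within a list were used.

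Peaks were placed against the GRCm39 genome and GENCODE M39 annotation with Python 3.11.15, numpy 2.4.6 and pandas 2.3.3. A peak belonged to every gene with an annotated start within 2000 bp of it (1 bp overlap or more). Sequences were read with pyfaidx 0.9.0.4. A few sequences and genes are not reported here. The overlap code was tested on simulated peaks and against bedtools 2.31.1, and figures were drawn with matplotlib 3.10.9. The limits of 1.5-fold width, 20 percentile points and the 20th WT percentile were chosen after values were seen. The receptor genes and other gene lists were chosen with earlier results of these data known. Full values were given for receptor genes that differ in presence between lists, a list with roles in brown adipocytes, the 5 with the largest width ratio in each comparison and the highest and lowest in each list, and of the other gene lists for those that differ in presence. Genes named beyond that rule were chosen after their values were seen. No test was run, since each condition has 1 list. Alternatives changed the window, the starts, the rule that gives peaks to genes, the threshold, the list size and the rank. The number of columns of per-sample values left unused was 0.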

Additional observations from a re-analysis of the deposited data

Results flagged for a closer look

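A peak lay inside Thra, the gene of thyroid hormone receptor α, beyond the windows used for promoters, and was present in both WT + 2HG and CLPP-KO while no WT peak overlapped it. It was 374 bp wide in WT + 2HG, at chr11:98641689-98642062 and percentile 9.52 of that list, and 414 bp wide in CLPP-KO, at chr11:98641652-98642065 and percentile 10.6. It fell within an intron, with no start of another gene within 2000 bp. With 1 list per condition the difference was not tested.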

How the results depend on the processing

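Of 152 recomputed summary values, 133 stayed within the limits set for a move, 19 moved and 0 turned direction in the receptor genes themselves. The number of receptor genes marked in CLPP-KO and not in WT, reported as 6, was 3 with equal list sizes by area, 1 with equal list sizes by summit p and 11 where the summit p had to reach 1e-05. The shares of protein-coding genes without a WT peak were 8.39, 8.28 and 15.0% in that order, and 14.9% as reported. For WT + 2HG, reported as 3, it was 1 with equal sizes by area, 6 with an area of at least 1000 and 7 with the stricter summit p. There the protein-coding shares were 7.26, 13.5 and 13.1%, and 11.6% as reported. The number marked in WT and not in CLPP-KO, reported as 0, was 1 with equal sizes by area and 1 by summit p, and for WT + 2HG it was 1 with equal sizes by summit p and 1 with each peak given to a single gene. The median percentile in WT, reported as 70.9, was 61.1 with the 5′ end of the gene only, 79.0 with an area of at least 1000, 80.2 with a single gene per peak, 80.9 with the stricter summit p and 63.9 when ranked among the strongest peaks of protein-coding genes. That last ranking gave 63.9 in WT + 2HG, reported as 71.9, and 55.5 in CLPP-KO, reported as 66.3, and the percentile of the summit p gave 66.0 in WT + 2HG. The median difference between CLPP-KO and WT was 10.9 points by the summit p and 3.41 by area. It lay below the median of protein-coding genes as reported, and above it with equal sizes by area, with the summit p (7.60 for protein-coding genes) and among the strongest peaks of protein-coding genes (3.73 against 3.51). The cause of these moves was not tested, beyond the fewer peaks that equal sizes and stricter thresholds leave. Of 724 recomputed values of single genes, 75 moved. Leaving out peaks that also reach another protein-coding gene was an alternative chosen after seeing the data. It gave 4 genes marked in CLPP-KO and not in WT, and 2 for WT + 2HG. The protein-coding shares were 10.5 and 8.28%. No paired analysis was possible because the replicates of a condition were called together, and for the same reason no replicate could be left out. The lists hold no read counts, so a missing peak may lie under the calling threshold.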
